A study of Homo sapiens with 6 samples.

Results

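The genes described here encode 17 matrix metalloproteinases (MMPs), 9 ADAM proteases, 13 ADAMTS proteases and 5 of their inhibitors (TIMP1 to TIMP4 and RECK). They were chosen by name, as 44 symbols, and all 44 were found in a table of 24294 loci. The cells were MCF12A, which the labels describe as a breast cancer line and which is otherwise known as a non-tumorigenic line of mammary epithelium made immortal in culture. In 1 group the cells stably over-expressed miR-424, and in the other they held an empty vector (EV). There were 2 groups of 3 samples, grown for 48 hours, and libraries of mRNA were sequenced. The labels do not tell whether a group is 1 clone or several separately derived lines, so the spread that p-values are based on may be technical.

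MMPs are secreted or membrane-bound zinc enzymes that cut collagens, laminins and other matrix proteins. Most are made as inactive precursors and are held in check by TIMPs, which bind the active site. ADAMs are membrane proteases that release the outer part of growth factors, cytokine receptors and adhesion proteins, a process called shedding. ADAMTS enzymes are secreted and cut proteoglycans and procollagens. In the mammary gland these enzymes take part in duct branching and in remodelling of the basement membrane.

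A microRNA recognises target transcripts mainly through its seed, bases 2 to 8 from its 5′ end. The mature sequences of miR-424-5p, which the construct was made to raise, and of microRNAs with the same or a nearly equal seed are shown so that the sites in the protease transcripts can be read against them. They are from RefSeq (GRCh38.p14) and the seed is in capitals.
miR-424-5p: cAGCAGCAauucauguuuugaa
miR-16-5p: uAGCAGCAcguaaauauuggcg
miR-497-5p: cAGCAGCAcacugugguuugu
miR-503-5p: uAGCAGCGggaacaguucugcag
miR-424-5p, miR-16-5p and miR-497-5p share the seed AGCAGCA, whereas miR-503-5p has AGCAGCG. A transcript pairs with bases 2 to 8 of miR-424-5p where it reads TGCTGCT, and with bases 2 to 7 followed by an A where it reads GCTGCTA. TGCTGCTA holds both matches.

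The longest annotated 3′ UTR (GENCODE 29) was searched for these letters on the transcript strand. Of the 24 members expressed well enough to be tested, 8 (33.3%) held TGCTGCT or GCTGCTA, against 28.7% of 9888 tested loci with a 3′ UTR. The longer match TGCTGCTA was in 3 tested members (12.5%), MMP24, RECK and ADAMTS6, against 4.83% of those loci. The median 3′ UTR length was 1877 bases in the tested members and 1390 in those loci. These shares were not adjusted for length. The sites below are shown with the 18 bases before them, and the match is in capitals.
MMP24: aggcgacaaggaccaaggTGCTGCTA
RECK: atcaatctttaaaccaatTGCTGCTA
ADAMTS6: catagcacatcacaatacTGCTGCTA
ADAMTS1: tgaccagcactgtttatgGCTGCTA
ADAMTS12: ggcctaggctgccgtactTGCTGCT
ADAMTS12 had 3 such matches, of which the first from the stop codon is shown, and ADAM10, ADAM22 and ADAMTS5 had 1 each. MMP28, TIMP3 and ADAMTS7, the members that fell in miR-424 cells, had none. A match in this window is a description of the sequence and not a shown binding site.

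The members differed widely in level, given in FPKM (fragments scaled to transcript length and library size, so that genes can be compared). ADAM9, a widely expressed sheddase, was the most abundant, at 178, 175 and 175 FPKM in the EV libraries. TIMP2, TIMP1 and MMP14 followed at 148 ± 1.54, 131 ± 2.94 and 123 ± 0.98 FPKM in EV cells (SD, n = 3). MMP2 (66.5 ± 1.15) and ADAM15 (63.1 ± 1.03) came next. Neighbours in this order did not overlap in EV cells, although the lowest value of MMP2 (65.2 FPKM) was close to the highest of ADAM15 (64.3 FPKM). In miR-424 cells TIMP1 stood above TIMP2 and ADAM9 overlapped with TIMP1 and TIMP2 with MMP14. The minimum for testing was a mean of 1 FPKM over the 6 libraries, which 24 members reached; of the others 10 lay between 0.1 and 1 FPKM and 10 under 0.1 FPKM. ADAM22, at a mean of 1.11 FPKM, was just inside that minimum and MMP15, at 0.999, just outside it.

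**Figure D1:**
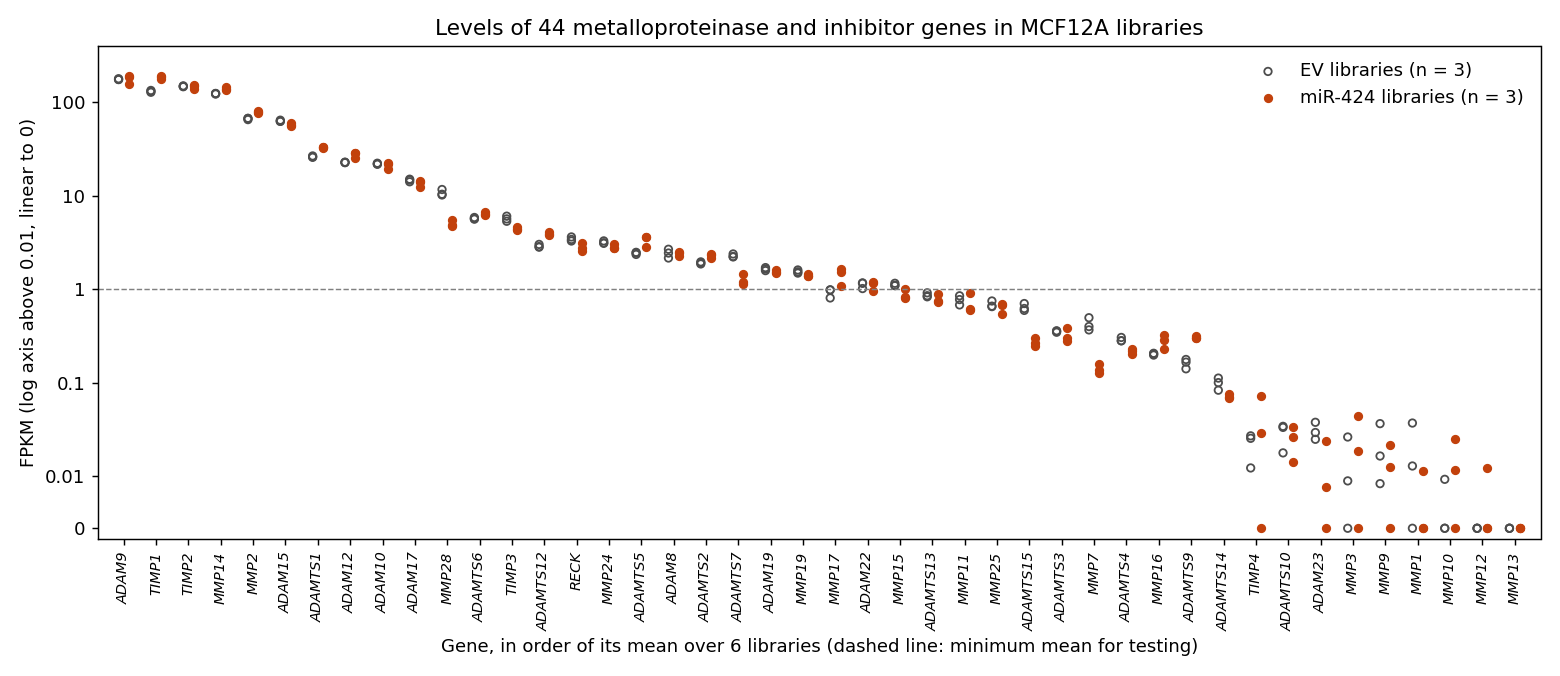
FPKM of 44 protease and inhibitor genes (horizontal axis, in order of mean level) in 3 EV libraries (open circles) and 3 miR-424 libraries (filled circles), on a log axis that is linear under 0.01 FPKM; the dashed line is the minimum mean of 1 FPKM for testing. ADAM9, TIMP1, TIMP2 and MMP14 lie above 100 FPKM in every library, and MMP13 is listed at 0 in all 6.

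Of the 6 members in the MMP cluster on chromosome 11, all but MMP7 were listed at or near 0. MMP1 and MMP13 (collagenases), MMP3 and MMP10 (stromelysins) and MMP12 (macrophage elastase) had no value above 0.0441 FPKM in any library, and MMP13 was listed at 0 in all 6. MMP1 and MMP3 are listed with the same span (102654406 to 102714342, hg19) but with separate values. MMP7 (matrilysin) was at 0.421 ± 0.067 FPKM in EV cells. Of the 2 gelatinases, MMP2 was among the most abundant members, whereas MMP9, best known from leukocytes, had no value above 0.0366 FPKM.

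The libraries were checked before the groups were compared. The locus MGC16121/MIR424, host of the microRNA, was at 0.989, 1.27 and 1.23 FPKM in the EV libraries and at 107, 106 and 224 FPKM in the miR-424 libraries. Replicate 3 of the miR-424 group stood apart: per locus its median absolute log2 difference from replicates 1 and 2 was 0.142 and 0.152, while these differed from each other by 0.0408 and EV libraries by 0.0357 to 0.0417. Its median log2 difference from replicates 1 and 2 was -0.0912 and -0.0902. Loci over 60% GC deviated from the EV mean by medians of -0.0918, -0.120 and -0.0511 (log2) in miR-424 replicates 1, 2 and 3, and loci of at most 40% GC deviated by 0.0676, 0.0837 and -0.216. Of the markers of mammary epithelium, 8 of 9 basal genes reached a mean of 1 FPKM (sum 155 to 160 FPKM in EV and 146 to 150 in miR-424 cells), as did 5 of 8 luminal genes (257 to 267 and 246 to 267). The basal marker TP63 and the luminal markers KRT19, CDH1 and ESR1 had no value above 0.192 FPKM. Of 7 fibroblast markers 2, DCN and COL1A1, reached 1 FPKM; the 7 summed to 156 to 166 FPKM in EV and to 164 to 186 FPKM in miR-424 cells, and COL1A1 rose. PDGFRA, COL1A2 and LUM stayed at or under 0.206 FPKM. Of 6 leukocyte markers 1 reached it, the lysosomal gene CD68, and the 6 summed to 54.9 to 57.7 FPKM in EV and to 53.0 to 58.9 FPKM in miR-424 cells, with PTPRC at or under 0.0679 FPKM. The 5 endothelial markers summed to no more than 0.341 FPKM. In bulk RNA, fewer cells of a type and less RNA per cell cannot be told apart. The part of the fibroblast markers in the results below was not tested.

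Differences were tested as log2(FPKM + 1), miR-424 minus EV, with limma, a linear model that shares the spread across loci. Of the 24 tested members 6 rose and 3 fell in miR-424 cells, with an adjusted p (Benjamini-Hochberg, over all tested loci) under 0.05. Over all 11574 tested loci 1.24% rose and 6.32% fell, 7.56% in either direction. The rises were MMP2, MMP14, TIMP1, ADAM12, ADAMTS1 and ADAMTS12, and the falls were MMP28, TIMP3 and ADAMTS7. The median log2 change of the tested members was -0.0029, against -0.0466 for all tested loci, and the median absolute change was 0.185 against 0.0770. Groups did not overlap for 10 members that were higher and 7 that were lower in miR-424 cells, where 6.59% and 26.9% of all tested loci did so (33.5% in either direction). All 9 changed members kept their direction in every alternative setting that tested them.

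Scaling moved the balance of calls over all loci: rises were 16.5% of them with the values as deposited, and 38.4%, 41.6% and 46.7% with median-of-ratios scaling, quantile normalization and each library's trend of level over transcript GC content removed. The members gave 7 rises and 2 falls with median-of-ratios scaling, where 2.66% and 4.28% of all loci rose and fell. Quantile normalization gave 8 and 2 (2.76% and 3.86% of all loci), and removal of the GC trend 9 and 4 (6.29% and 7.19%). Without miR-424 replicate 3 the members gave 10 rises and 5 falls, where 14.9% and 22.2% of all loci rose and fell, and with the GC trend removed as well 15 members passed (30.5% of all loci). Leaving out EV replicate 1, 2 or 3 left 2, 3 and 3 members, of which TIMP1 and MMP28 passed each time, where 0.959%, 0.95% and 1.03% of all loci passed. Without miR-424 replicate 1 or 2 the members that passed were 5 and 7 (2.96% and 3.87% of all loci).

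**Figure D2:**
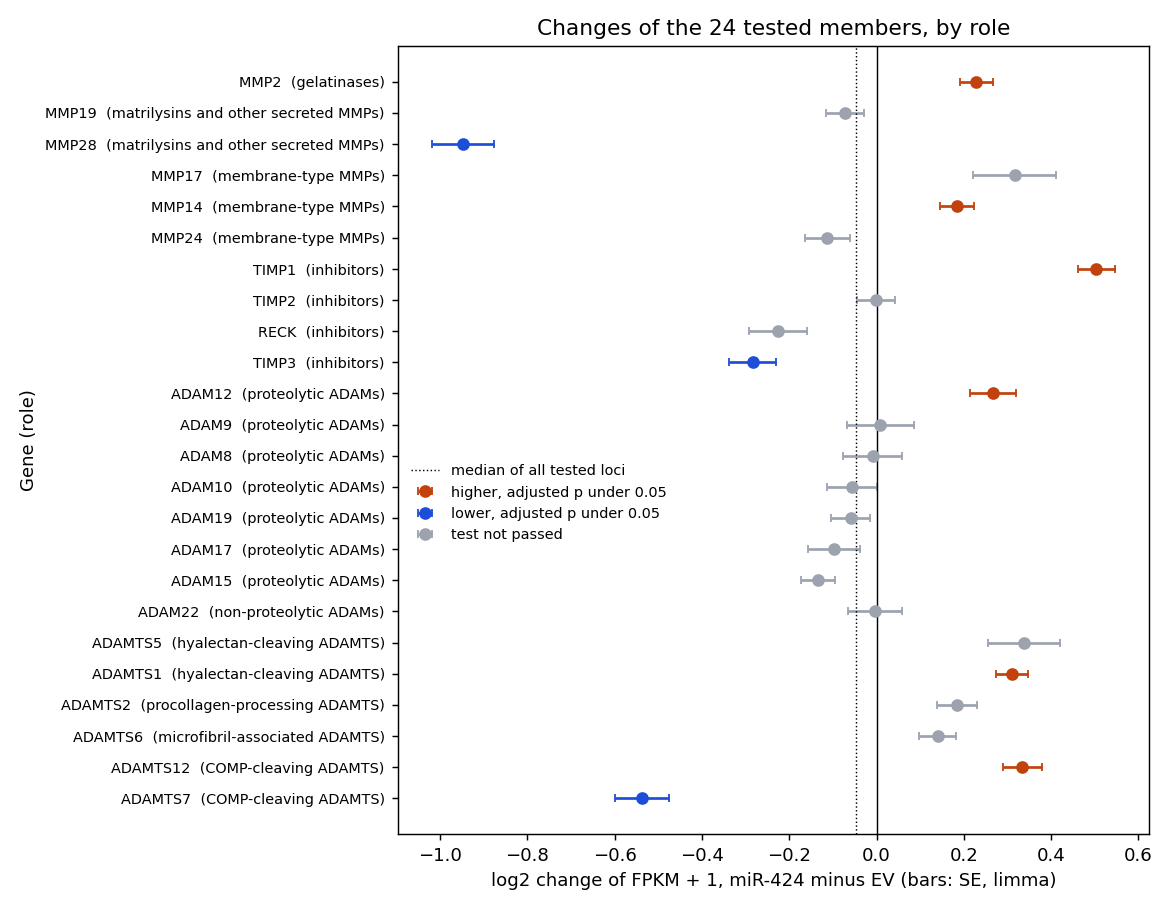
Log2 change of FPKM + 1, miR-424 minus EV (horizontal axis, bars show SE from limma), of the 24 tested members grouped by role, with 3 libraries a group. TIMP1 has the most positive change (0.50) and MMP28 the most negative (-0.95); the dotted line is the median of all tested loci (-0.0466).

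MMP2 (gelatinase A; chromosome 16, 55513080 to 55540586, hg19) and MMP14 (chromosome 14, 23305792 to 23316803) made up 90.6% of the summed MMP level in EV cells and 94.2% in miR-424 cells. MMP14 is a membrane-bound collagenase that, together with TIMP2, activates the MMP2 precursor on the cell surface. MMP2 was at 67.2, 65.2 and 67.2 FPKM in the EV libraries and at 77.8, 75.9 and 80.7 FPKM in the miR-424 libraries. Every miR-424 library lay above every EV library, and MMP2 rose by 0.23 ± 0.039 on the log2 scale (SE; limma, adjusted p = 0.0197), which is 17.5% more FPKM. MMP14 was at 122, 124 and 124 FPKM in EV and at 139, 136 and 147 FPKM in miR-424 cells. Its groups were also apart and it rose by 0.18 ± 0.039 (adjusted p = 0.0387), or 13.8% more FPKM. For both genes miR-424 replicate 3 was the highest library. Their longest matched transcripts have 56.5% and 58.9% GC. Replicate 3 was low over loci as a whole, but it did not stand apart in this GC class. Loci of 50 to 60% GC deviated from the EV mean by -0.0508, -0.0650 and -0.0628 (median log2) in miR-424 replicates 1, 2 and 3. The MMP2 call ended without EV replicate 1, 2 or 3 or miR-424 replicate 1 (limma adjusted p = 0.102, 0.119, 0.102 and 0.0716), and with the replicate number as a block (0.0604). The MMP14 call ended without EV replicate 1, 2 or 3 or miR-424 replicate 1 or 2 (0.176, 0.170, 0.164, 0.107 and 0.0638). It also ended with median-of-ratios scaling or quantile normalization (0.0672 and 0.0531) or no trend in the prior variance (0.0511). The same held with no filter and a pseudocount of 0.1 FPKM (0.0517) and with the replicate number as a block (0.101).

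MMP28, or epilysin, is a secreted MMP of epithelia such as skin (chromosome 17, 34092875 to 34122640). It was at 11.7, 10.2 and 10.4 FPKM in EV cells and at 5.56, 4.80 and 4.90 FPKM in miR-424 cells. The ratio of the group means was 0.473, and the 3 miR-424 libraries lay close together, far under the EV libraries. MMP28 had the largest absolute change among the tested members (log2 change -0.95 ± 0.071, SE; limma, adjusted p = 0.00205). It passed in all 16 alternatives, with an adjusted p of at most 0.0225 when any 1 library was left out. The longest matched MMP28 transcript has 64.8% GC, in the class that was lower in miR-424 libraries as a whole, and with the GC trend removed the log2 change was -0.84 (adjusted p = 0.000975). MMP19, a secreted MMP, was at 1.55 ± 0.060 and 1.42 ± 0.046 FPKM in EV and miR-424 cells and did not pass (log2 change -0.072, adjusted p = 0.385). ORMDL2 and DNAJC14 are listed in the same span as MMP19 at higher levels, and use of strand in the counting is not given, so shared reads between them cannot be told apart.

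Of the other membrane-type MMPs, MMP17 and MMP24 were tested and neither passed. MMP17, which is anchored by a glycolipid, was at 0.985, 0.808 and 0.984 FPKM in EV cells and at 1.63, 1.08 and 1.51 FPKM in miR-424 cells. Its groups did not overlap, but the miR-424 libraries were spread widely (log2 change 0.32 ± 0.096, SE; limma, adjusted p = 0.102). Without miR-424 replicate 2, the lowest of the 3, MMP17 passed (adjusted p = 0.0357), and so it did with the GC trend removed (0.0155). MMP24 was at 3.18 ± 0.10 FPKM in EV and at 2.86 ± 0.18 FPKM in miR-424 cells (log2 change -0.11 ± 0.051, adjusted p = 0.244), and its log2 change was -0.025 with the GC trend removed.

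The inhibitors moved apart from each other. TIMP1, a soluble inhibitor of most MMPs (chromosome X, listed at 47420498 to 47479256), was at 134, 128 and 131 FPKM in EV cells and at 187, 177 and 193 FPKM in miR-424 cells. This was 42.2% more FPKM, with the lowest miR-424 library well above the highest EV library. TIMP1 rose by 0.50 ± 0.043 on the log2 scale (SE; limma, adjusted p = 0.00271). It passed in all 16 alternatives, with an adjusted p of at most 0.0335 when 1 library was left out. TIMP2, which both inhibits MMPs and takes part in MMP2 activation, was at 150, 147 and 148 FPKM in EV cells and at 153, 151 and 140 FPKM in miR-424 cells. The groups overlapped, and the difference was -0.0020 ± 0.0439 (SE; adjusted p = 0.987). TIMP2 passed as higher in 1 alternative, without miR-424 replicate 3 and with the GC trend removed (log2 change 0.097, limma adjusted p = 0.00648).

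TIMP3, which binds the extracellular matrix and also inhibits ADAM17 and ADAMTS enzymes (chromosome 22, listed at 32908539 to 33454377), was at 5.34, 5.66 and 6.05 FPKM in EV cells. In miR-424 cells it was at 4.35, 4.45 and 4.65 FPKM, each under the lowest EV value. TIMP3 fell by 0.28 ± 0.054 on the log2 scale (SE; limma, adjusted p = 0.0280). This call ended without EV replicate 1, 2 or 3 or miR-424 replicate 1 or 2 (adjusted p = 0.0732, 0.128, 0.127, 0.0958 and 0.0817). It also ended with median-of-ratios scaling (0.0814), quantile normalization (0.108), no filter on low values (0.0503) and the replicate number as a block (0.0551). RECK, a membrane-anchored inhibitor, was at 3.63, 3.41 and 3.28 FPKM in EV and at 3.11, 2.76 and 2.54 FPKM in miR-424 cells. Its groups did not overlap but it did not pass (log2 change -0.23 ± 0.066, adjusted p = 0.0960), except without miR-424 replicate 3 (0.0431) or with the GC trend removed (0.0449). TIMP4 was at 0.0123, 0.0255 and 0.0271 FPKM in EV cells and at 0.0293, 0 and 0.0716 FPKM in miR-424 cells, too low to compare.

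TIMP1, TIMP3 and TIMP4 each lie within a synapsin gene, and the table gives them the span of that locus. SYN1, SYN3 and SYN2, listed with the same spans, were at no more than 0.0256, 0.0220 and 0.0466 FPKM. ARAF shares the TIMP1 span and was at 14.4 FPKM in EV and at 13.1 FPKM in miR-424 cells on average. TIMP1 made up 46.3%, 45.6% and 46.0% of the summed TIMP level in the EV libraries and 54.3%, 53.4% and 57.2% in the miR-424 libraries. The ratio of TIMP1 to TIMP2 was 0.893, 0.872 and 0.885 in EV libraries and 1.22, 1.18 and 1.38 in miR-424 libraries, so the order of these 2 genes was reversed in every miR-424 library. The TIMP sum over the MMP sum was 1.36 ± 0.015 in EV and 1.46 ± 0.049 in miR-424 cells. TIMP2 over MMP14 was 1.20 ± 0.022 and 1.05 ± 0.087. These ratios are given as descriptions without a test.

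**Figure D3:**
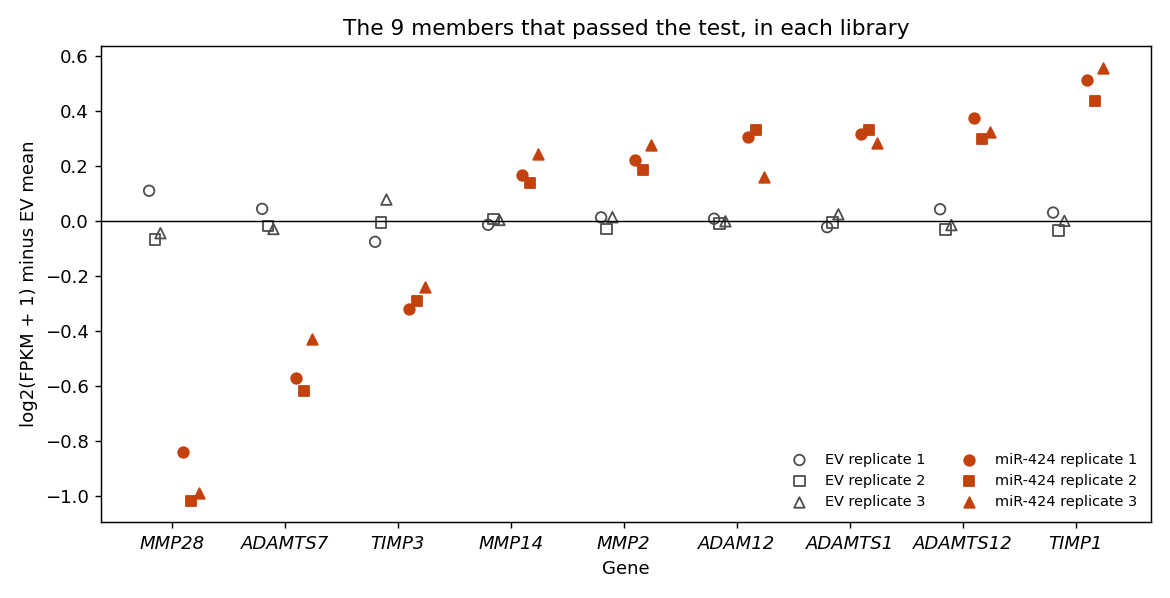
Log2(FPKM + 1) minus the EV mean (vertical axis) in each library for the 9 members that passed the test; open symbols are EV and filled symbols miR-424, with a symbol shape for each replicate. The miR-424 libraries lie to 1 side of all EV libraries for each gene, and replicate 3 is the highest for TIMP1, MMP2 and MMP14.

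Among the proteolytic ADAMs, all 7 were tested and ADAM12 alone passed. ADAM12, or meltrin alpha, sheds EGF receptor ligands and is made by mesenchymal and many tumour cells (chromosome 10, 127702901 to 128077127). It was at 22.9, 22.6 and 22.7 FPKM in EV cells and at 28.4, 28.8 and 25.6 FPKM in miR-424 cells, again without overlap. ADAM12 rose by 0.27 ± 0.053 on the log2 scale (SE; limma, adjusted p = 0.0308), 21.4% more FPKM. The call ended without EV replicate 1, 2 or 3 or miR-424 replicate 1 or 2 (adjusted p = 0.134, 0.145, 0.141, 0.104 and 0.0915), and with the replicate number as a block (0.0723).

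The main sheddases did not pass. ADAM10, which releases Notch and cadherin ectodomains, was at 22.3, 21.9 and 21.7 FPKM in EV and at 22.3, 21.8 and 19.3 FPKM in miR-424 cells (log2 change -0.057 ± 0.058, SE; limma, adjusted p = 0.627). ADAM17, which releases TNF and EGF family ligands, was at 15.0, 14.7 and 14.1 FPKM and at 14.1, 14.2 and 12.5 FPKM (log2 change -0.098 ± 0.060, adjusted p = 0.391). For both, the groups overlapped and miR-424 replicate 3 was the lowest library. Their longest matched transcripts have 38.3% and 42.1% GC. With the GC trend removed the log2 changes of ADAM10 and ADAM17 were -0.029 and -0.067 (limma adjusted p = 0.649 and 0.198). ADAM9 was at 190, 188 and 156 FPKM in miR-424 cells. Replicates 1 and 2 were thus above and replicate 3 below all EV libraries, and ADAM9 did not pass (log2 change 0.0082 ± 0.077, SE; limma, adjusted p = 0.966). Without replicate 3 it passed as higher (log2 change 0.099, limma adjusted p = 0.00642), but not when the GC trend was removed as well (0.045, adjusted p = 0.101).

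ADAM15, an ADAM with an integrin-binding motif, was at 64.3, 62.4 and 62.6 FPKM in EV and at 56.9, 55.8 and 59.4 FPKM in miR-424 cells. The groups were apart, but the difference did not pass (log2 change -0.14 ± 0.039, SE; limma, adjusted p = 0.0901) unless miR-424 replicate 3 was left out (0.00219). The longest matched ADAM15 transcript has 62.7% GC, and with the GC trend removed the log2 change was -0.036 (limma adjusted p = 0.408), and -0.042 (0.117) without replicate 3 as well. ADAM8, of leukocytes and tumour cells, and ADAM19 were at 2.43 ± 0.26 and 1.64 ± 0.061 FPKM in EV cells and at 2.40 ± 0.14 and 1.54 ± 0.058 FPKM in miR-424 cells, and neither passed (limma adjusted p = 0.963 and 0.493). Of the ADAMs without protease activity, ADAM22 was at 1.12 ± 0.085 and 1.11 ± 0.13 FPKM, and ADAM23 reached at most 0.0378 FPKM. The 9 ADAMs summed to 304 ± 3.65 FPKM in EV and to 303 ± 21.4 FPKM in miR-424 cells.

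The ADAMTS genes showed changes in both directions at lower levels. ADAMTS1, which cuts versican and aggrecan, was the most abundant of the family (chromosome 21, 28208605 to 28217728). It was at 25.8, 26.1 and 26.6 FPKM in EV cells and at 32.9, 33.2 and 32.1 FPKM in miR-424 cells. The spread within each group was small, and ADAMTS1 rose by 0.31 ± 0.036 on the log2 scale (SE; limma, adjusted p = 0.00679), 25.0% more FPKM. It missed the threshold without EV replicate 1, 2 or 3 (adjusted p = 0.0581, 0.0611 and 0.0512). ADAMTS5, the main aggrecan-cutting enzyme of cartilage, lies beside ADAMTS1 on chromosome 21. It was at 2.48, 2.45 and 2.36 FPKM in EV cells and at 3.64, 3.61 and 2.80 FPKM in miR-424 cells, and just missed the threshold (0.34 ± 0.083, adjusted p = 0.0585). It passed without miR-424 replicate 3 (0.000482), with median-of-ratios scaling (0.0193), with quantile normalization (0.0129) and with the GC trend removed (0.00218).

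ADAMTS7 and ADAMTS12, which are closely related and both cut cartilage oligomeric matrix protein (COMP), moved in opposite directions. ADAMTS12 (chromosome 5, 33527286 to 33892124) was at 3.02, 2.82 and 2.86 FPKM in EV cells and at 4.06, 3.80 and 3.89 FPKM in miR-424 cells. It rose by 0.33 ± 0.046 on the log2 scale (SE; limma, adjusted p = 0.0105), but not without EV replicate 1, 2 or 3 (0.0581, 0.0742 and 0.0721). ADAMTS7 (chromosome 15, 79051544 to 79103773) was at 2.39, 2.24 and 2.22 FPKM in EV and at 1.21, 1.14 and 1.44 FPKM in miR-424 cells. The ratio of means was 0.554 with no overlap, and ADAMTS7 fell by 0.54 ± 0.062 on the log2 scale (adjusted p = 0.00650). It missed the threshold without EV replicate 1 (0.0529). The longest matched ADAMTS7 transcript has 65.7% GC, and with the GC trend removed the log2 change was -0.42 (0.00243). ADAMTS7 has closely similar pseudogenes on chromosome 15, which makes its level uncertain.

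ADAMTS2, which trims fibrillar procollagens, was at 1.91 ± 0.049 FPKM in EV and at 2.31 ± 0.11 FPKM in miR-424 cells (log2 change 0.18 ± 0.046, SE; limma, adjusted p = 0.0618). ADAMTS6 was at 5.73 ± 0.12 and 6.42 ± 0.19 FPKM (0.14 ± 0.043, adjusted p = 0.104). Neither gene had overlapping groups, and both passed without miR-424 replicate 3 (0.0293 and 0.0130) and with quantile normalization (0.0467 and 0.0424). ADAMTS6 also passed with median-of-ratios scaling (0.0402) and ADAMTS2 with the GC trend removed (0.00832). Summed over the 13 ADAMTS genes, levels were at 43.9 ± 0.36 FPKM in EV and at 52.0 ± 1.02 FPKM in miR-424 cells, most of it from ADAMTS1.

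Below the minimum for testing, some genes differed by larger factors. MMP7, a matrilysin that glandular epithelia secrete, was at 0.368, 0.399 and 0.496 FPKM in EV cells and at 0.128, 0.136 and 0.158 FPKM in miR-424 cells, a ratio of means of 0.334. ADAMTS15, a versican-cutting enzyme, was at 0.704, 0.594 and 0.623 FPKM in EV and at 0.247, 0.267 and 0.298 FPKM in miR-424 cells, a ratio of 0.423. ADAMTS9, which also cuts versican, was at 0.166, 0.141 and 0.178 FPKM in EV and at 0.320, 0.304 and 0.298 FPKM in miR-424 cells, a ratio of 1.90. In these 3 genes the libraries of a group lay close together and the groups were far apart.

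Of the 10 members between 0.1 and 1 FPKM, 2 (ADAMTS9 and MMP16) were higher and 4 (MMP7, MMP15, ADAMTS4 and ADAMTS15) were lower in miR-424 cells with no overlap. Among 3319 loci in this range 4.34% and 21.4% did so (25.8% in either direction). With no filter on low values, MMP7, ADAMTS15 and ADAMTS9 passed (limma, adjusted p = 0.0129, 0.00766 and 0.0103), where 0.786% of 19342 loci were higher and 3.87% lower. With a pseudocount of 0.1 FPKM as well, a setting chosen after seeing the data, their log2 changes were -1.11 ± 0.12, -0.998 ± 0.10 and 0.64 ± 0.089 (SE; limma, adjusted p = 0.0114, 0.0101 and 0.0203), where 0.755% and 3.7% of loci were higher and lower. MMP15, a membrane-type MMP, was at 1.12 ± 0.036 and 0.879 ± 0.103 FPKM and did not pass with no filter (0.112). MMP16, ADAMTS4, MMP11, MMP25, ADAMTS3 and ADAMTS13 did not pass with no filter. The 10 members under 0.1 FPKM were MMP1, MMP3, MMP9, MMP10, MMP12, MMP13, TIMP4, ADAM23, ADAMTS10 and ADAMTS14, with no value above 0.112 FPKM; 8 of them were listed at 0 in at least 1 library. FPKM values carry no fragment counts, so their counting error is not known.

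**Figure D4:**
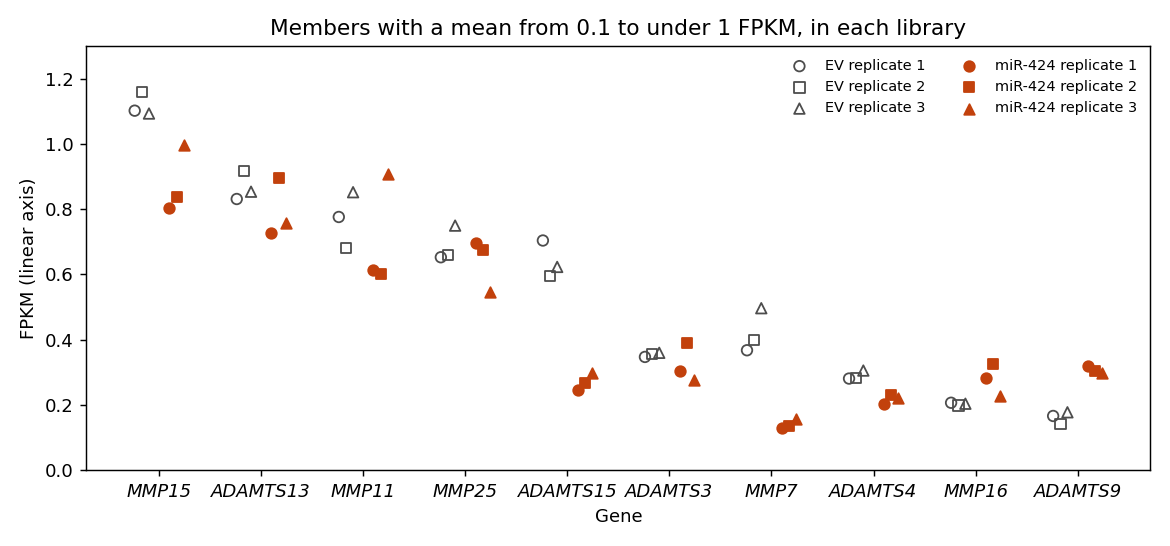
FPKM on a linear axis (vertical) in each library of the 10 members with a mean from 0.1 to under 1 FPKM; open symbols are EV and filled symbols miR-424, with a symbol shape for each replicate. ADAMTS15 and MMP7 are lower in all 3 miR-424 libraries than in any EV library, and ADAMTS9 is higher in all 3.

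The seed matches were set beside the changes of the members. Of the 8 tested members with TGCTGCT or GCTGCTA in the 3′ UTR, 2 rose (ADAMTS1 and ADAMTS12) and 0 fell, and of the 16 without, 4 rose and 3 fell (limma). MMP24, RECK and ADAMTS6, whose TGCTGCTA sites are printed above, had log2 changes of -0.11, -0.23 and 0.14, and none of them passed. Of the 9888 tested loci with a 3′ UTR, 2841 held such a match, of which 269 (9.47%) fell and 33 (1.16%) rose. The remaining loci were more numerous, and of them 370 fell and 100 rose, a smaller share of falls and a slightly larger share of rises. The median log2 change was -0.0589 for loci with a match and -0.0394 for loci without one. With 8 members no direction can be read from this. The mature microRNA was not measured in these libraries.

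Promoter sequences (250 bases before to 50 after the start; RefSeq, GRCh38.p14) were given for 26 of the 44 members. They were searched on both strands for TGANTCA (the AP-1 motif, known from MMP promoters), TATAAA (the TATA box) and GGGCGG (the GC box). AP-1 was in the promoters of 3 members, MMP7, MMP10 and ADAMTS12, and in 7.71% of 35116 promoters of the same length. TATAAA was in 3 members, MMP7, MMP10 and 1 of the 2 ADAMTS10 promoters, against 11.5% of all promoters. MMP7 and MMP10, from the cluster on chromosome 11 described above, held both, as 1.31% of all promoters do. GC boxes were in 22 members, against 45.0% of all promoters, and in neither of these 2. Only exact matches were counted. The promoter of TIMP1 held no exact AP-1 match. It held TGAGTAA, which differs from TGANTCA in 1 base, but such near matches were not counted in any other promoter. Their share over all promoters is therefore not known, and nothing is read from this one. The TIMP1 promoter is shown beside those of MMP7 and MMP10, with matches in capitals.
MMP7 (chr11:102530698-102530997, minus strand): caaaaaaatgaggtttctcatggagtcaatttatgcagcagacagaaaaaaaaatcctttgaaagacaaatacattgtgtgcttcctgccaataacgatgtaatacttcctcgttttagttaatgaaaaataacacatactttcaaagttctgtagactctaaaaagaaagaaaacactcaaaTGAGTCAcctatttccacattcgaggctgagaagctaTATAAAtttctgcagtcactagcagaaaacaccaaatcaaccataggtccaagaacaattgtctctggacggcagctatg
MMP10 (chr11:102780579-102780878, minus strand): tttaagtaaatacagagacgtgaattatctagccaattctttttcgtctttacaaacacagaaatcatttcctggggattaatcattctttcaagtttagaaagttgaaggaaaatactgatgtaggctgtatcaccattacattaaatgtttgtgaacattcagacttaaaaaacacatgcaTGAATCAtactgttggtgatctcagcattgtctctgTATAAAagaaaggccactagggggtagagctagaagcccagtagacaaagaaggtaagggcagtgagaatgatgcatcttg
TIMP1 (chrX:47582186-47582485, plus strand): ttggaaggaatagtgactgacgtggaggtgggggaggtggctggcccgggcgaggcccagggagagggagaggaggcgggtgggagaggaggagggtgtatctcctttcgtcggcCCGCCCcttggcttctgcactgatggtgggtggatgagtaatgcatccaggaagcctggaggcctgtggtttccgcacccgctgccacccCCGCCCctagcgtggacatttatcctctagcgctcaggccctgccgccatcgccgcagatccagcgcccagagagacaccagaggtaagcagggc
In MMP7 and MMP10 the AP-1 match lies upstream of the TATA box, and TIMP1 has 2 GC boxes on the minus strand. TIMP1 and MMP14, both above 100 FPKM, held a GC box and no TATAAA. The same was true of ADAM23, TIMP4 and ADAMTS14, at means of 0.021, 0.028 and 0.085 FPKM. No promoter was given for ADAM9 and TIMP2, which were also above 100 FPKM.

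Of 70 further genes of the pathway 31 were tested, 4 rose and 4 fell. Their median log2 change was -0.0059, against -0.0466 for all tested loci, of which 1.24% rose and 6.32% fell. Among enzymes that remove prodomains, FURIN, which activates MMP14 and most ADAMs, was at 19.4, 18.9 and 19.7 FPKM in EV cells and at 15.9, 15.3 and 15.9 FPKM in miR-424 cells. It fell by 0.28 ± 0.039 on the log2 scale (SE; limma, adjusted p = 0.0108), and the log2 change was -0.19 with the GC trend removed (0.0102). Of 7 tested partners of ADAM10 and ADAM17, 2 fell. These were TSPAN15, a tetraspanin that guides ADAM10 (2.43 ± 0.076 to 1.51 ± 0.17 FPKM, adjusted p = 0.00923), and FRMD8, which stabilises the iRhom partners of ADAM17 (7.28 ± 0.22 to 6.18 ± 0.064 FPKM, adjusted p = 0.0338).

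Among 10 tested genes whose products ADAMs shed, the EGF receptor ligand genes EREG and TGFA rose and the Notch ligand gene JAG1 fell. JAG1 was at 9.71, 9.26 and 9.83 FPKM in EV and at 7.65, 7.40 and 7.41 FPKM in miR-424 cells (log2 change -0.32 ± 0.042, SE; limma, adjusted p = 0.00923). VCAN encodes versican, a proteoglycan cut by ADAMTS1, ADAMTS9 and ADAMTS15. It was at 18.9 ± 0.23 FPKM in EV cells and at 23.9 ± 0.84 FPKM in miR-424 cells, with no overlap. VCAN rose by 0.32 ± 0.041 (limma adjusted p = 0.00860), close to the 0.31 of ADAMTS1. Of the other members that cut such proteoglycans, ADAMTS5 and ADAMTS9 were higher in miR-424 cells (ratios of means 1.38 and 1.90). ADAMTS4 and ADAMTS15 were lower (0.755 and 0.423). ADAMTS5 did not pass, and the others were under the minimum for testing. Of 6 tested inducers, inhibitors and clearance receptors 0 passed (limma), with 2 at an unadjusted p under 0.05, and BSG, an inducer of MMPs, was the most abundant (on average 425 FPKM in EV cells against 428 FPKM in miR-424 cells). BMP1, an astacin-family protease that trims procollagens, was at 31.5 ± 0.54 and 31.4 ± 1.35 FPKM. Of 27 listed relatives of the members, 3 were tested and 1 rose, ADAMTSL4, a matrix protein without protease activity (7.69 ± 0.50 to 10.4 ± 0.78 FPKM, adjusted p = 0.0211).

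EREG, which was at 3.30, 3.16 and 2.96 FPKM in EV and at 4.95, 5.22 and 4.63 FPKM in miR-424 cells, was the only 1 of these 8 genes that passed whichever library was left out (limma adjusted p of at most 0.0461). FURIN, TSPAN15, JAG1 and VCAN did not pass without EV replicate 1, 2 or 3, where the adjusted p reached 0.0805, 0.0613, 0.0716 and 0.0698. When 1 library was left out TGFA, FRMD8 and ADAMTSL4 passed only without miR-424 replicate 3, and the largest adjusted p without another library was 0.201, 0.162 and 0.112. TGFA also missed the threshold with no filter on low values (0.0538) and with the replicate number as a block (0.103). FRMD8 also missed the threshold with median-of-ratios scaling, quantile normalization and the GC trend removed (adjusted p = 0.0793, 0.0983 and 0.0871), and with that block (0.101).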

How the data were processed

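FPKM values were deposited by the authors in 1 table, with a column per sample, for 6 samples. Per the submitters' processing notes, the tools were Cuffdiff, Cufflinks 1.3.0 and TopHat 1.4.1, with hg19 and GRCh37 as builds; their roles are not stated. For annotation, strand use, read numbers and scaling the sources used here give nothing. Low values were searched for steps of whole fragments, which gave only approximate depths, 0.768 to 1.22 of EV replicate 1, with 4.19% to 8.95% of low loci within 0.03 (log2) of the step, so no counts were recovered and depth is unknown. FPKM summed to 409776 to 424564 per library.

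Members were matched by symbol, and the row with the highest mean was used. The 11574 loci whose mean over all libraries reached 1 FPKM were compared as log2(FPKM + 1), with EV subtracted from miR-424, by limma 3.58.1 in R 4.3.3 (trended prior variance, two-sided, Benjamini-Hochberg adjustment over all tested loci, threshold 0.05). This scale understates changes of low genes. An exact permutation test of 3 against 3 cannot go below 0.1 and was not used. Transcript GC and 3′ UTRs came from GENCODE 29 (GRCh38) by RefSeq accession or symbol; 11407 tested loci had a GC value. Coordinates of loci are hg19. Members and lists were chosen with earlier results of these data known. Named genes were all members, with every library shown for those that passed, had a mean of at least 10 FPKM or were inhibitors, and for each other list up to 3 genes with the smallest adjusted p, or the most abundant; other library values shown were chosen after they were seen. The alternatives were another pseudocount (0.1), other filters, scalings and prior, a replicate block, removal of a GC trend (loess, span 0.5) and leaving out each library.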

Additional observations from a re-analysis of the deposited data

How the results depend on the processing

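Over all loci 875 passed, 575 at a minimum of 5 FPKM, 1538 with the GC trend removed, and 110 to 4302 when 1 library was left out; leaving out miR-424 replicate 3 gave the highest count, and 3483 with the GC trend removed as well. Of the members 9 passed, 2 to 15 when 1 library was left out and 15 without miR-424 replicate 3 with the GC trend removed; the lists of other pathway genes gave 8, 1 to 16, and 16. Replicate numbers are shared by the groups, and same-numbered samples correlated at 0.051, 0.152 and 0.127 in their deviations from the group means. Every sample but EV replicate 1 correlated best with its own number in the other group. EV replicate 1 correlated best with miR-424 replicate 2 (0.061). With 3 samples a group, such low values do not settle whether the samples were paired. With a replicate block 349 loci and 5 members passed. MMP2, MMP14, TIMP3, ADAM12, TGFA and FRMD8 did not pass with it (limma adjusted p = 0.0604, 0.101, 0.0551, 0.0723, 0.103 and 0.101). Signs changed only for members that did not pass. TIMP2 was at 0.055, 0.045 and 0.062 (log2) with median-of-ratios scaling, quantile normalization and the GC trend removed, ADAM8 at 0.033, 0.065 and 0.096, and ADAM22 at 0.027, 0.066 and 0.027. ADAM19 was at 0.013 with quantile normalization and 0.0049 with the GC trend removed. Without miR-424 replicate 3 and with the GC trend removed, MMP24, TIMP2, ADAM8 and ADAM19 were at 0.011, 0.097, 0.092 and 0.016. Leaving out 1 library gave -0.028 to 0.038 for TIMP2, -0.065 to 0.044 for ADAM8, -0.041 to 0.099 for ADAM9, -0.094 to 0.0030 for ADAM10 and -0.037 to 0.048 for ADAM22. The causes were not tested. Library depth is unknown, which limits what can be said of the members under 1 FPKM.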
